A study of Mus musculus with 2 samples.

Results

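The genes described here are the chemosensory receptor families other than the odorant receptors: the vomeronasal receptors of type 1 (Vmn1r) and type 2 (Vmn2r), the taste receptors of type 1 (Tas1r) and type 2 (Tas2r), and the trace amine-associated receptors (Taar). Members were taken by symbol, and for each gene the transcript that drew most reads in the 2 libraries together was used. This gave 403 of 23517 genes, of which 229 were Vmn1r, 121 Vmn2r, 3 Tas1r, 35 Tas2r and 15 Taar genes. In both tables with the same length were 357 of them, and the others, all Vmn1r, are described apart. Poly-A RNA was read from medullary thymic epithelial cells (mTEC), sorted from B6 thymus into cells with high and cells with low surface MHC class II. Both sorted populations came from 1 pool of 3 mice, were given no treatment or mutation in the labels, and yielded 1 library each. The sources used here give neither age nor sex of the mice. With no second library of either group there is no replicate check, and every interval below is an exact 95% Clopper-Pearson interval computed from read counts, which covers counting error only. Fragments were read from 2 ends, and the sources used here do not state whether both ends were counted apart. If they were, the intervals are too narrow and genes with few reads are called too easily.

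Medullary thymic epithelial cells express many genes of other tissues, which are shown to developing T cells, and MHC class II marks the more mature of these cells. Vomeronasal receptors sit on sensory neurons that detect pheromones, and trace amine-associated receptors on olfactory neurons that detect volatile amines, with Taar1 acting mainly in brain. Tas1r proteins pair to form the sweet and umami receptors, Tas2r proteins detect bitter compounds, and both signal through gustducin, phospholipase C beta 2 and the Trpm5 channel, not only in the tongue but also in tuft cells of several epithelia. Tuft-like cells are known in the thymic medulla.

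The high library held 138368543 and the low library 56077471 reads on 23411 compared genes. CPM are read counts over library totals scaled by the TMM method, and a level is CPM per kilobase of transcript. Epcam, an epithelial surface protein, had 647 CPM in MHC-II high and 562 CPM in MHC-II low cells. Aire, the regulator of tissue antigens in mature mTEC, had 595 CPM in MHC-II high and 20.2 CPM in MHC-II low cells. Of the MHC class II genes shown, H2-Aa was called higher, with a ratio of 2.17 in MHC-II high over MHC-II low cells. H2-Ab1 was not, with 4301 CPM in MHC-II high and 3135 CPM in MHC-II low cells (ratio 1.37). Cd74, the invariant chain that binds MHC class II, was called higher with a ratio of 2.26. Krt5 and Krt14, keratins of less mature mTEC, had 800.1 and 306 CPM in the high library, against 5628 and 2214 CPM in the low library. Krt8, a keratin of simple epithelium, had 1634 CPM in MHC-II high and 1876 CPM in MHC-II low cells. Of 10 markers of mature mTEC 8 were higher in the high library, and of 10 markers of immature and basal mTEC 6 were lower, by the 2-fold rule given below. Markers of other cells also differed. All 8 endothelial markers, 5 of 7 fibroblast markers and 4 of 6 erythroid markers were lower in the high library, and 6 of 10 markers of dendritic cells and macrophages were higher. By the same rule 13.7% of all compared genes were called higher and 14.8% lower. No marker of these lists stood at 0 in either library. Their summed levels in MHC-II high and low were 75.9 and 485 CPM for endothelium, 198 and 1044 CPM for fibroblasts, 107 and 3811 CPM for erythroid cells, and 477 and 111 CPM for dendritic cells and macrophages. Their part in the receptor values was not tested. In bulk RNA, fewer cells of a type and less RNA per cell cannot be told apart.

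The sequence upstream of the bitter taste receptor genes is shown first, for Tas2r108, the receptor gene with the highest level in both libraries, and 3 others. RefSeq windows (build GRCm38.p6) that run from 250 bases before to 50 bases after the annotated gene start were matched for 366 of the 403 receptor genes, among them 31 of 35 Tas2r genes. The octamer letters ATTTGCAT, the letters bound by POU-domain factors such as Pou2f3, the lineage factor of tuft cells, were searched on both strands. They occurred in 7 of 31 Tas2r windows (22.6%), against 1.75% of 27025 windows of all genes, 2.66% of olfactory receptor windows, 1.95% of Vmn1r and 6.03% of Vmn2r windows. The genes were Tas2r107, Tas2r108, Tas2r118, Tas2r126, Tas2r135, Tas2r137 and Tas2r144, and 1 of their 7 matches overlapped a match of another motif searched. Those other motifs were TATAAA, found in 32.3% of Tas2r windows and 14.2% of all windows, the E-box CANNTG, in 80.6% and 72.1%, and TAATTA, in 16.1% and 5.31%. TATAAA stood in 42.4% of Vmn1r, 23.3% of Vmn2r, 54.5% of Taar and 41.2% of olfactory receptor windows. For TAATTA these shares were 7.32%, 17.2%, 9.09% and 18.7%. The median GC content was 37.0% in Tas2r windows and 52.7% in all windows. A start codon stood right at the annotated gene start in 29 of 31 Tas2r windows (93.5%), against 6.75% of all windows. It did so in 87.8% of Vmn1r, 86.2% of Vmn2r, 100% of Taar and 72.9% of olfactory receptor windows. Most Tas2r windows thus end within coding sequence and begin upstream of the coding start, not of a mapped transcript start. A match of letters is a description and not a binding site. The windows of 3 genes with the octamer and of Tas2r105, the Tas2r gene second in level, which holds no such letters, follow, with the octamer and the start codon in capitals. They lie on GRCm38.p6 at chr6:40493342-40493641 (plus strand) for Tas2r108, chr6:40490988-40491287 (plus strand) for Tas2r137, chr6:23970011-23970310 (minus strand) for Tas2r118 and chr6:131687414-131687713 (minus strand) for Tas2r105.
Tas2r108: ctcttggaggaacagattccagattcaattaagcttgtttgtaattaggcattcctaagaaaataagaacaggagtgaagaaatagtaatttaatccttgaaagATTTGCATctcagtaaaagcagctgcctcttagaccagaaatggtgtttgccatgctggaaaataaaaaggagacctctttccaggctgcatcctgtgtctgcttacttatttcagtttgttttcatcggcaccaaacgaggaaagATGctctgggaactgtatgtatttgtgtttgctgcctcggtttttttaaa
Tas2r137: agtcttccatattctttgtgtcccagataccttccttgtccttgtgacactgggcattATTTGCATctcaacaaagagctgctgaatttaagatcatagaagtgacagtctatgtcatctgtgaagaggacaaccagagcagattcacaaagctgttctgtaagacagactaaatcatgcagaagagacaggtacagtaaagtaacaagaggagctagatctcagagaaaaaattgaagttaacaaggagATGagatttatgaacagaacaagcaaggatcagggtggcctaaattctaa
Tas2r118: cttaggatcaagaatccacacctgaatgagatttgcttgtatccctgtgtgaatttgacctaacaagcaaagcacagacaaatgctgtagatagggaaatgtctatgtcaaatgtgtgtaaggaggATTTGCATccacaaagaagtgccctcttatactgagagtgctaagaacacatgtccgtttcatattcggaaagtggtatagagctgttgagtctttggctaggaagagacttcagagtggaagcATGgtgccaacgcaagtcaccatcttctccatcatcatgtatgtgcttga
Tas2r105: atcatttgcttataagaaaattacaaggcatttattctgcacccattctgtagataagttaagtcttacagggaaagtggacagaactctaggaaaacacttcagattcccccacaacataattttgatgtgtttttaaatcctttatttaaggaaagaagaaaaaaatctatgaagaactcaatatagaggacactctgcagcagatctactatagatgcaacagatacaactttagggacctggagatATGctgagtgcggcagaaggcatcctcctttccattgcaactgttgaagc

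The taste receptors stood apart from the other families in level. The median level over all members was 1.74 in the MHC-II high and 2.52 in the MHC-II low library for Tas1r and 0.578 and 1.81 for Tas2r. For Taar it was 0.0991 in MHC-II high and 0.386 in MHC-II low cells, for Vmn1r 0.0114 and 0.131, and for Vmn2r 0.0140 and 0.118. Over all compared genes it was 3.64 in MHC-II high and 2.96 in MHC-II low cells, and over 1103 olfactory receptor genes 0.0145 and 0.243. Tas2r genes held 47.0% of all receptor reads in MHC-II high and 45.3% in MHC-II low cells on 5.50% of the summed transcript length. Vmn1r held 7.93% and 16.1% on 36.0% of the length, and Vmn2r 17.4% and 20.9% on 54.3%. As a check against a background of scattered reads, the 95th percentile of all Vmn1r and Vmn2r levels was taken, 0.113 in MHC-II high and 0.373 in MHC-II low cells. Above it stood 28 Tas2r genes in MHC-II high and 30 in MHC-II low cells, 27 of them in both. All 3 Tas1r genes stood above it in both libraries, and 6 Taar genes in MHC-II high and 8 in MHC-II low cells did, 2 of them in both. A mean of at least 1 CPM over both libraries was reached by 24 receptor genes, of which 18 were Tas2r, 3 Tas1r and 3 Vmn2r. Of these 24 genes 12 were called lower in MHC-II high, by the rule given below, and 1 higher, beside 9.25% of the 17441 genes at that level called lower and 16.4% called higher.

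**Figure D1:**
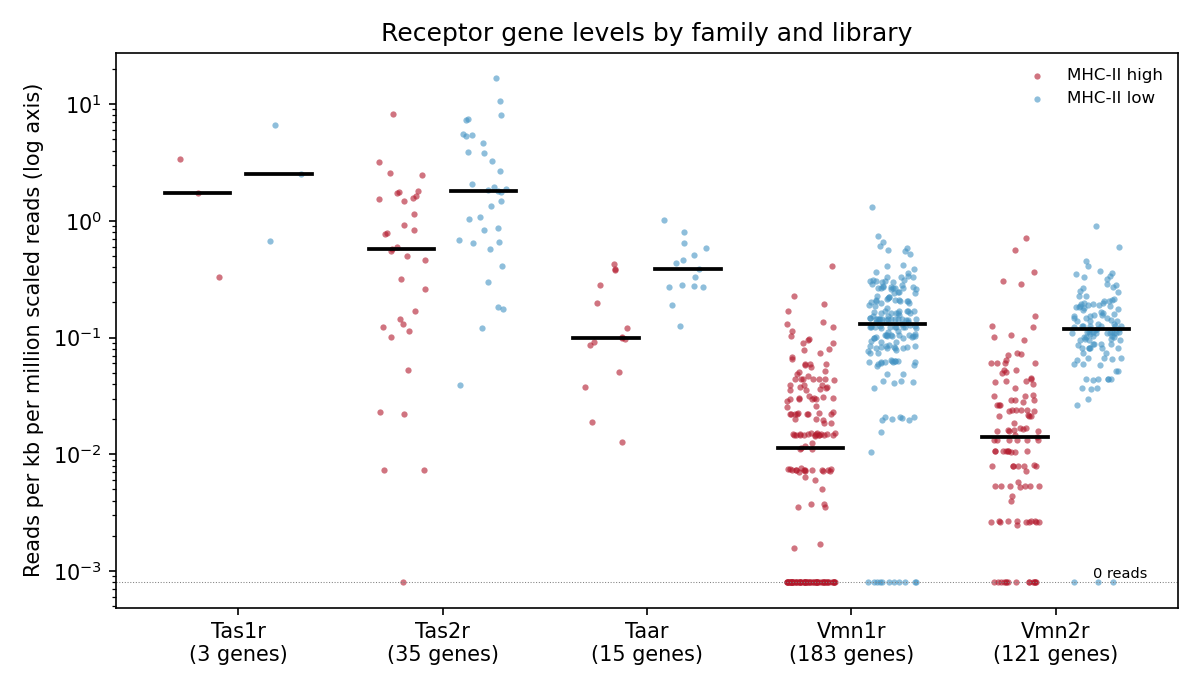
Level of each compared receptor gene (CPM per kilobase, log axis) by family, with MHC-II high left of MHC-II low in each pair, black bars at the median and genes without reads on the dotted line. The Tas2r medians stood at 0.578 in MHC-II high and 1.81 in MHC-II low cells, and the Vmn1r medians at 0.0114 and 0.131.

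Reads were also set against transcript length. Over 183 Vmn1r genes Spearman's rho of reads and length was 0.34 in MHC-II high and 0.38 in MHC-II low cells, and over 121 Vmn2r genes it was 0.01 and -0.02. It was 0.09 in MHC-II high and 0.17 in MHC-II low cells over the 35 Tas2r genes, and -0.52 and -0.12 over the 15 Taar genes. Over all compared genes it was 0.51 in both libraries, so that a positive rho does not mark background reads. Levels in the high and low library ran together over the 35 Tas2r genes (rho 0.91), as they did over all compared genes (0.91), and less closely or not at all over the 183 Vmn1r (0.06), 121 Vmn2r (0.13), 15 Taar (-0.31) and 1103 olfactory receptor genes (0.19). The genes of a family share both libraries and, for Tas2r, nearly one length, and these coefficients describe genes and not samples. The lengths of 329 of the 357 genes were multiples of 3, and for such models the length is a coding length.

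**Figure D2:**
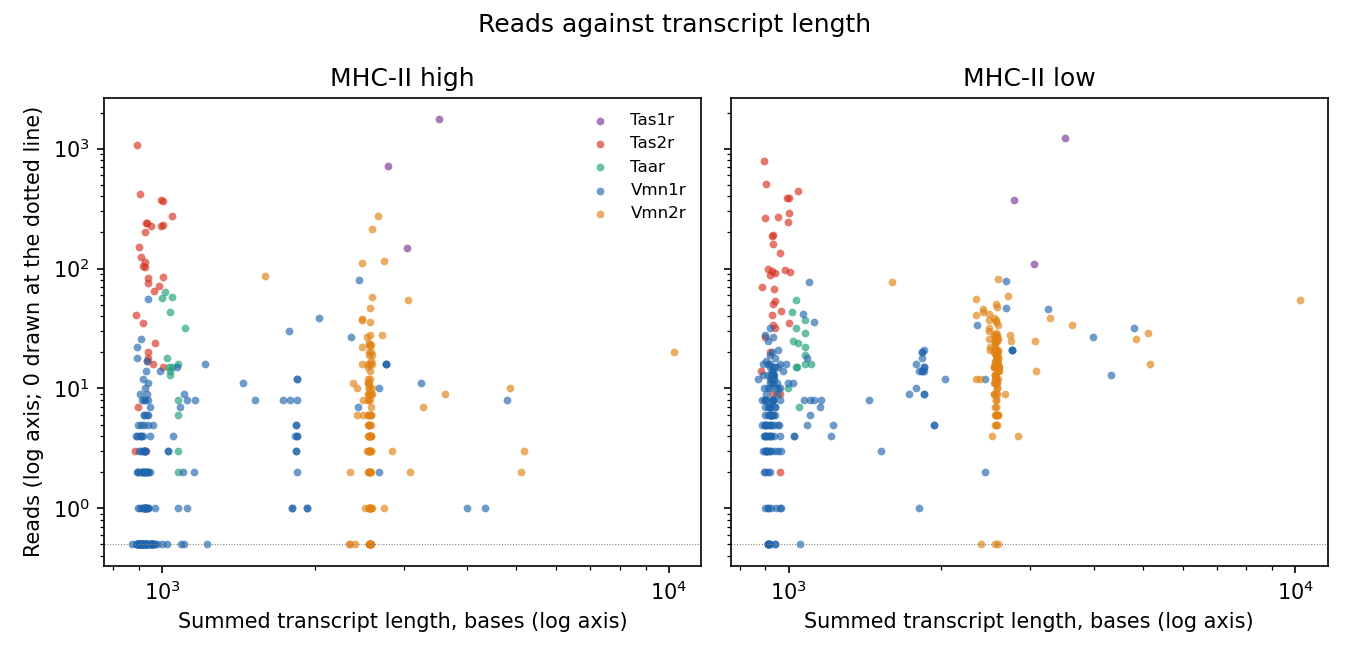
Reads of each receptor gene against its summed transcript length (both axes log) in the MHC-II high (left) and MHC-II low (right) library, coloured by family, with 0 reads drawn at the dotted line. Tas2r genes, at a median length of 933 bases, reached 1078 reads in MHC-II high and 788 in MHC-II low cells, and Vmn1r genes, at a median length of 930 bases, reached 81 and 79.

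Between the libraries most receptor families were lower in MHC-II high. A gene was called when its whole interval lay beyond 2-fold. Of 357 receptor genes 189 were called lower in the high library, beside 14.8% of all genes and 57.7% of olfactory receptor genes, and 3 were called higher, beside 13.7% of all genes and 1.27% of olfactory receptor genes. The receptor share called lower was 52.9%. By family, 24 of 35 Tas2r, 8 of 15 Taar, 83 of 183 Vmn1r and 74 of 121 Vmn2r genes were called lower, and no Tas1r gene was. The log2 ratio of summed reads was -0.87 for Tas1r (interval -0.95 to -0.78), -1.55 for Tas2r (-1.61 to -1.49), -1.48 for Taar (-1.69 to -1.26), -1.87 for Vmn2r (-1.96 to -1.79) and -2.63 for Vmn1r (-2.75 to -2.51). It was -1.76 for the olfactory receptors, and the median over all genes was -0.03. Reads summed over all transcript lines were 191391401 in MHC-II high, beside a total of 213854095 behind the deposited RPKM. In MHC-II low cells they were 74029717, beside 142330178, so the sum stood further below the total there. The part of reads outside the listed transcripts in the receptor values was not tested. Most Vmn1r and Vmn2r values rest on a few reads. Scaling by the read totals behind the deposited RPKM added 0.88 to every log2 ratio. It brought the median over all genes to 0.85, with 36.3% of all genes called higher and 7.36% lower, left 115 receptor genes called lower and brought Tas1r to 0.02, while the other 4 families stayed below 0. Members with a log2 ratio below 0 that lay within this shift of 0 change direction with that scaling.

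The type 1 taste receptors were all detected. Tas1r3, the subunit common to the sweet and umami receptors, had 1759 reads in MHC-II high and 1238 reads in MHC-II low cells, levels of 3.41 and 6.66, and was 1.95-fold lower in MHC-II high (interval 1.81 to 2.10). Its gene overlaps Dvl1, a Wnt signalling gene with 16138 reads in MHC-II high and 5705 in MHC-II low cells, and without strand the reads of the overlap cannot be told apart. Tas1r1, the other umami subunit, had 710 reads in MHC-II high and 371 reads in MHC-II low cells, levels of 1.74 and 2.52, and was 1.45-fold lower (1.27 to 1.65). Tas1r2, the other sweet subunit, had 147 reads in MHC-II high and 109 in MHC-II low cells, levels of 0.329 and 0.677, and was 2.06-fold lower (1.59 to 2.65). The order Tas1r3, Tas1r1, Tas1r2 was the same in both libraries, and no interval lay wholly beyond 2-fold. With the RPKM read totals the log2 ratios were -0.08 for Tas1r3, 0.35 for Tas1r1 and -0.16 for Tas1r2, so that the direction of Tas1r1 depends on the scaling.

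Bitter taste receptor genes held the most reads of the 5 families, 34.5 CPM summed in MHC-II high and 101 CPM in MHC-II low cells. Tas2r108, highest of all receptor genes in level, had 1078 reads in MHC-II high and 788 reads in MHC-II low cells, levels of 8.22 and 16.7. It was 2.03-fold lower in MHC-II high, with an interval of 1.85 to 2.22 that spans 2-fold, so it was not called. In gene order it lies between Tas2r137 and Prss37. Tas2r137 had 364 reads in MHC-II high and 390 in MHC-II low cells and was 2.97-fold lower (2.57 to 3.44). Prss37, a protease-like gene of testis, had 488 reads in MHC-II high and 37 in MHC-II low cells, the opposite direction. In the low library the level of Prss37 was 0.667, against 16.7 for Tas2r108.

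Next in level were Tas2r105 and Tas2r117. Tas2r105, the mouse receptor for cycloheximide, had 421 reads in MHC-II high and 505 in MHC-II low cells, levels of 3.18 and 10.57, and was 3.33-fold lower (2.92 to 3.80). Tas2r117 had 371 reads in MHC-II high and 390 in MHC-II low cells, levels of 2.55 and 7.43, and was 2.92-fold lower (2.52 to 3.37). Both were called lower, as was Tas2r118, shown above, with 152 reads in MHC-II high and 266 in MHC-II low cells. The 11 Tas2r genes not called were Tas2r104, Tas2r106, Tas2r108, Tas2r110, Tas2r113, Tas2r115, Tas2r116, Tas2r121, Tas2r125, Tas2r126 and Tas2r144. The called genes with reads in both libraries were between 2.55-fold lower (Tas2r107) and 31.4-fold lower (Tas2r124). Tas2r106 had 0.777 CPM in MHC-II high and 0.775 CPM in MHC-II low cells (ratio 1.002, interval 0.696 to 1.47). Tas2r144, with 16 reads in MHC-II high and 2 in MHC-II low cells, was the other member not lower in MHC-II high (ratio 2.88, interval 0.678 to 25.9). At the other end, Tas2r119 had 15 reads in MHC-II high and 94 in MHC-II low cells and was 17.4-fold lower (10.02 to 32.3), with the gene model Gm32499 overlapping it. Tas2r139 had 0 reads in MHC-II high and 9 in MHC-II low cells. Of the 7 genes with the octamer, levels ran between 0.0394 and 16.7 in the low library. The median of these 7 was 1.15 in MHC-II high and 3.79 in MHC-II low cells, against 0.507 and 1.42 over the 24 other Tas2r genes with a window, with no test made.

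**Figure D3:**
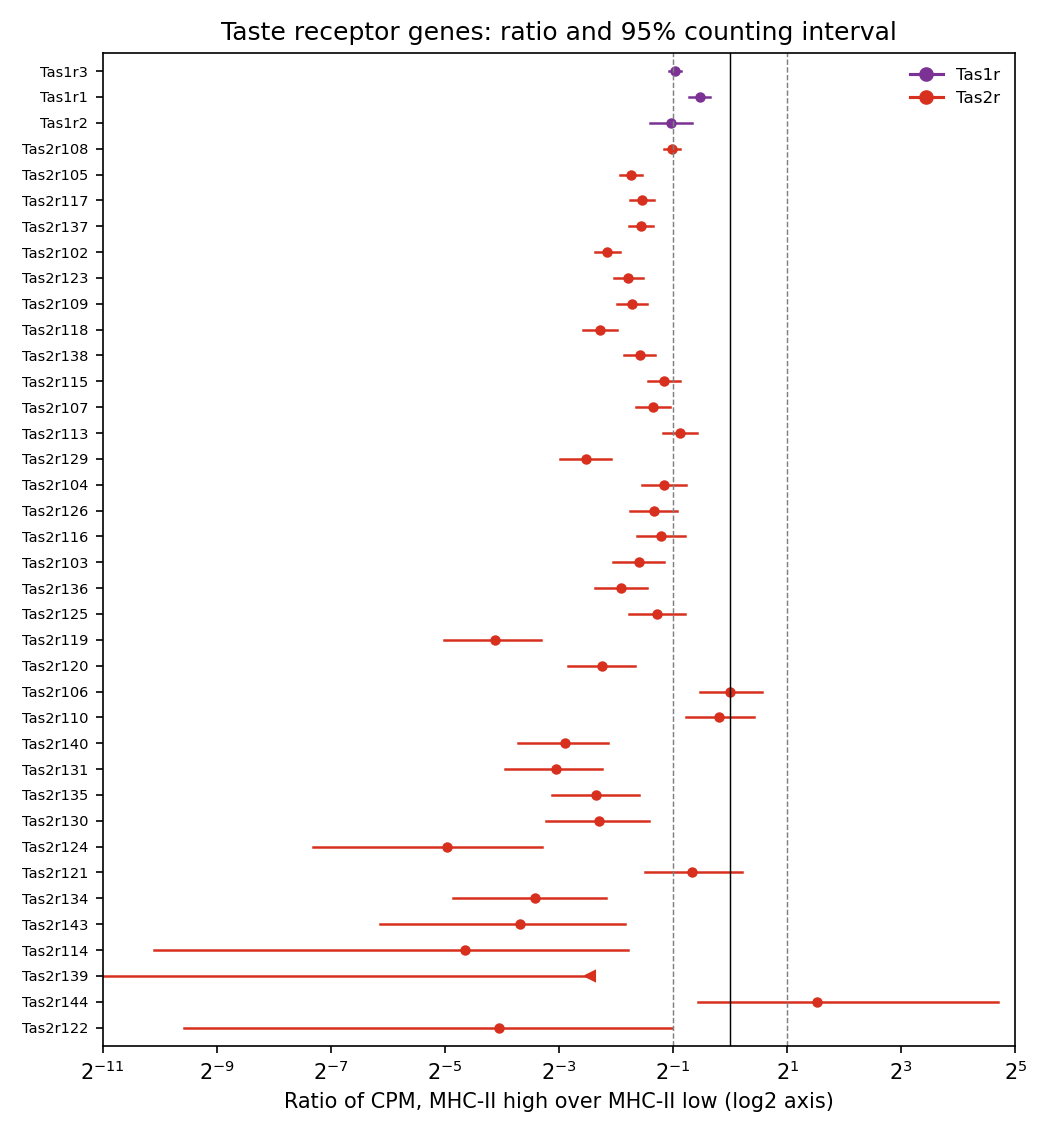
Ratio of CPM, MHC-II high over MHC-II low (log2 axis), of each Tas1r and Tas2r gene with its 95% counting interval, ordered by level within a family; dashed lines mark 2-fold, and the arrowhead marks the upper limit of a gene with 0 reads in the high library. Of 35 Tas2r genes 24 had their whole interval beyond the 2-fold line on the lower side.

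The Tas2r genes form 3 groups of neighbours in the RefSeq gene order, counted with at most 10 other genes between members, and single genes. The 24 genes from Tas2r130 to Tas2r140 had 3067 reads in MHC-II high and 3364 in MHC-II low cells (log2 ratio -1.61). The 3 genes Tas2r137, Tas2r108 and Tas2r138 had 1669 and 1424 reads in MHC-II high and low (-1.24), and the 5 genes from Tas2r139 to Tas2r126 had 147 reads in MHC-II high and 164 in MHC-II low cells (-1.63). All 3 groups were lower in MHC-II high.

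Part of the downstream partners of taste receptors were lower in MHC-II high. Of 11 taste signalling genes measured, 5 were called lower (45.5%, beside 14.8% of all genes) and none higher, with a median log2 ratio of -1.09 beside -0.03 over all genes. Trpm5, the cation channel that depolarises taste and tuft cells, had 122 CPM in MHC-II high and 391 CPM in MHC-II low cells and was 3.21-fold lower (3.15 to 3.28). Gnat3, the alpha subunit of gustducin, had 37.96 CPM in MHC-II high and 114 CPM in MHC-II low cells and was 3.00-fold lower (2.90 to 3.12). Its partners Gnb3 and Gng13 had 55.4 and 13.6 CPM in the high library, against 150 and 54.2 CPM in the low library. Plcb2, the phospholipase of the pathway, had 74.5 CPM in MHC-II high and 184 CPM in MHC-II low cells. Itpr3, an inositol trisphosphate receptor, had 107 and 99.6 CPM in MHC-II high and low, and Gnb1, a general G protein subunit, 312 and 332 CPM. Pou2f3 itself had 66.1 CPM in MHC-II high and 90.6 CPM in MHC-II low cells, a 1.37-fold lower value (1.32 to 1.42) that was not called.

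Tuft-like cells carry taste receptors and their signalling proteins in several epithelia. Of 16 tuft-like markers measured, 11 were called lower (68.8%, beside 14.8% of all genes) and none higher, and their summed log2 ratio was -1.58, beside -1.55 for Tas2r. Their summed level was 770 CPM in MHC-II high and 2306 CPM in MHC-II low cells, no marker stood at 0, and their part in the Tas2r values was not tested. Il25, the tuft cell cytokine, had 13.4 CPM in MHC-II high and 69.9 CPM in MHC-II low cells, and Avil, an actin-binding protein, had 136 and 540 CPM. Dclk1, a kinase used as a tuft cell marker, had 86.7 CPM in MHC-II high and 305 CPM in MHC-II low cells. Hpgds, a prostaglandin D synthase also found in other cells, was the one marker above a ratio of 1, with 57.0 CPM in MHC-II high and 28.9 CPM in MHC-II low cells. The list shares Gnat3, Gng13, Plcb2, Pou2f3 and Trpm5 with the taste signalling list. With the RPKM read totals, 4 tuft-like markers, 1 taste signalling gene and 9 Tas2r genes were called lower, and 1 tuft-like marker was called higher, beside 7.36% of all genes called lower and 36.3% higher.

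Most other taste genes were not called. Of 13 genes for sour, salt and other taste, 4 were called higher (30.8%) and 1 lower (7.69%), beside 13.7% and 14.8% over all genes, with a median log2 ratio of 0.56. Pkd2l1, a channel that marks sour taste cells, had 16.4 CPM in MHC-II high and 2.44 CPM in MHC-II low cells, and Otop1, the sour taste proton channel, 2.43 and 0.643 CPM. Grm4, a metabotropic glutamate receptor, had 6.71 CPM in MHC-II high and 1.53 CPM in MHC-II low cells, and Scnn1g, a subunit of the epithelial sodium channel, 9.22 and 3.50 CPM. Cd36, a fatty acid receptor also of endothelium and macrophages, was the gene called lower, with 5.56 CPM in MHC-II high and 50.7 CPM in MHC-II low cells. Scnn1a, the alpha subunit of the sodium channel, had 88.7 CPM in MHC-II high and 80.4 CPM in MHC-II low cells, and Casr, the calcium-sensing receptor, 30.8 CPM in MHC-II high and 26.1 CPM in MHC-II low. Pkd1l3, the partner of Pkd2l1, had 23.5 CPM in MHC-II high and 15.98 CPM in MHC-II low cells, and Gprc5c 17.5 CPM in MHC-II high and 35.4 CPM in MHC-II low. None of these 4 was called.

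**Figure D4:**
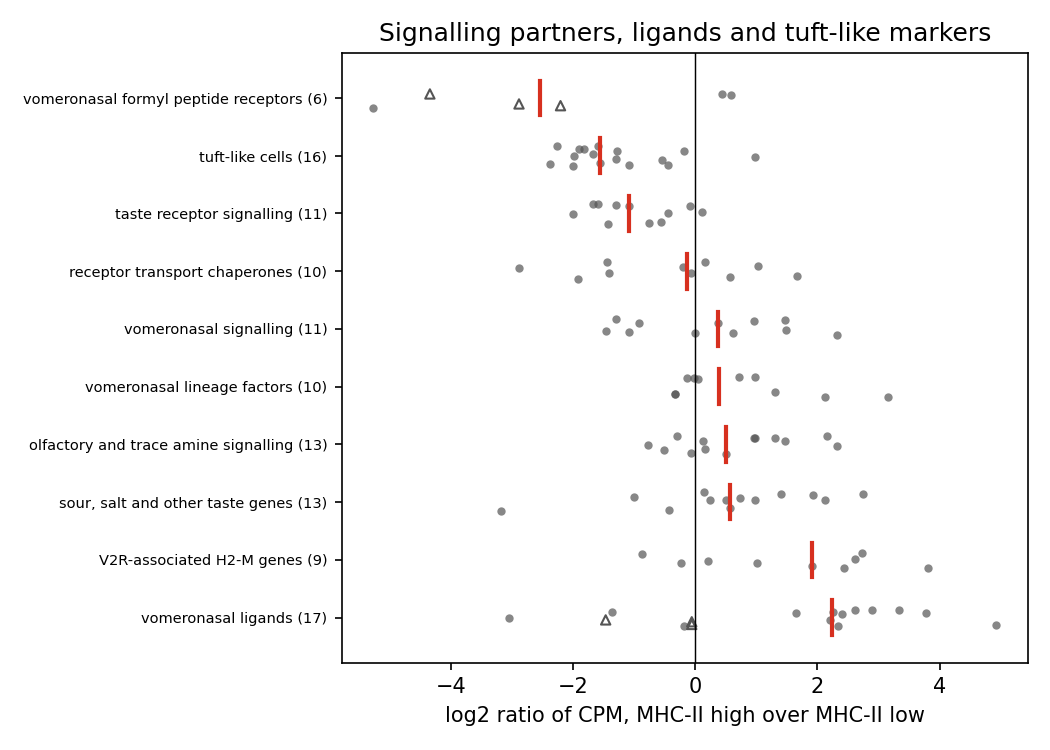
log2 ratio of CPM, MHC-II high over MHC-II low, of each gene (points) in lists of signalling partners, ligands and tuft-like markers, with the list median as a red bar, the number of genes measured in brackets, and triangles for genes with 0 reads in 1 library, set to 3 reads. The medians run between -2.55 for the formyl peptide receptors and 2.23 for the vomeronasal ligands.

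Trace amine-associated receptor genes had 2 to 64 reads in MHC-II high and 7 to 55 reads in MHC-II low cells, and summed to 364 and 365 reads. All 15 lie in 1 group of neighbours. The 4 with the highest mean level were Taar5, Taar3, Taar7f and Taar8a. Taar5, the mouse receptor for trimethylamine, had 64 reads in MHC-II high and 43 in MHC-II low cells, levels of 0.430 and 0.802, and was not called (1.86-fold lower, 1.24 to 2.79). Taar3 had 15 and 55 reads in MHC-II high and low and was 10.17-fold lower (5.66 to 19.4). Taar7f had 2 reads in MHC-II high and 37 in MHC-II low cells and was 51.3-fold lower (13.2 to 439). Taar8a had 13 and 32 reads in MHC-II high and low, 6.83-fold lower (3.49 to 14.2). Also called lower were Taar2 (18 reads in MHC-II high and 25 in MHC-II low cells), Taar4 (15 in high, 24 in low), Taar7a (8 in high, 29 in low), Taar7b (3 in high, 16 in low) and Taar7e (6 in high, 19 in low). The receptors not called were, beside Taar5, Taar1 (57 reads in MHC-II high, 10 in MHC-II low), Taar6 (14 in high, 15 in low), Taar7d (16 in high, 22 in low), Taar8b (43 in high, 15 in low), Taar8c (32 in high, 16 in low) and Taar9 (58 in high, 7 in low). Taar1 and Taar9 had ratios of 2.06 (1.04 to 4.51) and 2.99 (1.36 to 7.76), higher in MHC-II high beyond counting error but not beyond 2-fold. With TMM over genes with a mean of at least 1 CPM every log2 ratio moved by -0.12, which takes the lower limit of Taar1 below 1. The median log2 ratio was -1.95 and that of the summed reads -1.48.

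The main olfactory neurons, which hold most Taar proteins, signal through cyclic nucleotide-gated channels. Of 13 genes of this signalling measured, 3 were called higher (23.1%) and none lower, beside 13.7% and 14.8% over all genes, with a median log2 ratio of 0.50. Omp, the olfactory marker protein, had 55.9 CPM in MHC-II high and 11.2 CPM in MHC-II low cells, Cnga2, the cyclic nucleotide-gated channel, 18.7 and 4.22 CPM, and Ano2, a chloride channel, 4.70 and 1.70 CPM. Rgs2, a regulator of G protein signalling, had 164 CPM in MHC-II high and 281 CPM in MHC-II low cells, Slc12a2, a chloride transporter, 82.3 and 87.1 CPM, and Ric8b, a chaperone of olfactory G protein, 25.9 and 31.8 CPM, and none of these was called. Of 10 transport chaperones 1 was called higher and 4 lower, beside 13.7% and 14.8% over all genes. Reep1 had 14.5 CPM in MHC-II high and 4.56 CPM in MHC-II low cells, while Rtp4, an interferon-induced gene, had 24.9 and 185 CPM, Reep5 had 118 and 313 CPM, Rtp3 had 0.743 and 2.02 CPM, and Rtp2 had 0.218 and 0.832 CPM. Reep3 and Reep4, with 106 and 34.0 CPM in the high library and 112 and 22.8 CPM in the low library, were not called. With the RPKM totals the median of the chaperones was 0.75 in place of -0.14.

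Type 1 vomeronasal receptors were close to the limit of detection. They had 0 to 81 reads (median 2) in MHC-II high and 0 to 79 reads (median 8) in MHC-II low cells. At the level of 3 reads in the shallower library, 0.0567 CPM, 27 of 183 were detected in MHC-II high and 159 in MHC-II low cells. Over all 357 receptor genes 119 were detected in MHC-II high and 329 in MHC-II low cells. Beside these, 256 and 956 of 1103 olfactory receptor genes and 20816 and 22326 of all 23411 compared genes were detected in MHC-II high and low. This level takes 8.32 reads in the high library, where 119 of the 183 Vmn1r genes had at least 1 read. No reads in the high library were found for 64 Vmn1r genes and none in the low library for 11, and 7 of these had none in either. A count of 0 allows up to 3 reads, which is 0.0204 CPM in MHC-II high and 0.0567 CPM in MHC-II low cells.

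The 4 Vmn1r genes with the highest mean level were Vmn1r42, Vmn1r43, Vmn1r79 and Vmn1r53, and all 4 were called lower in MHC-II high. Vmn1r42 had 2 reads in MHC-II high and 77 in MHC-II low cells, levels of 0.0124 and 1.33, and was 107-fold lower (28.6 to 898). Vmn1r43 had 15 and 42 reads in MHC-II high and low, and Vmn1r79 had 8 reads in MHC-II high and 32 in MHC-II low cells. Vmn1r53 had 1 read in MHC-II high and 36 in MHC-II low cells and overlaps the gene model Gm20426. Vmn1r58 had 2 and 79 reads in MHC-II high and low and was 110-fold lower (29.3 to 920). Vmn1r191 had 0 and 28 reads in MHC-II high and low, at least 19.7-fold lower by the limit of its interval, as given below for every gene or group with 0 reads, and 25.9-fold lower with the 0 set to the floor of 3 reads. Vmn1r90 had 0 reads in MHC-II high and 27 in MHC-II low cells, at least 18.9-fold lower, but the gene Olfr1016 had the same counts and length. The 2 genes called higher were Vmn1r32, with 81 reads in MHC-II high and 2 in MHC-II low cells (ratio 14.6, interval 3.91 to 123), and Vmn1r207, with 56 reads in MHC-II high and 3 in MHC-II low cells (ratio 6.73, 2.19 to 33.6). Vmn1r32 has a summed length of 2442 bases, and its level was 0.226 in MHC-II high and 0.0155 in MHC-II low cells.

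Type 2 vomeronasal receptors had 0 to 277 reads (median 6) in MHC-II high and 0 to 82 reads (median 17) in MHC-II low cells. Vmn2r1 to Vmn2r7, which include the receptors co-expressed broadly in basal vomeronasal neurons, are described apart. They summed to 616 reads in MHC-II high and 204 in MHC-II low cells (log2 ratio 0.12, interval -0.11 to 0.36), while the 114 other Vmn2r genes summed to 1253 reads in MHC-II high and 2266 in MHC-II low cells (-2.33, interval -2.43 to -2.23). Vmn2r3 had 277 reads in MHC-II high and 9 in MHC-II low cells, levels of 0.707 and 0.0637, and was called higher, with a ratio of 11.1 (5.76 to 24.5). Vmn2r1 and Vmn2r2 had 115 and 111 reads in the high library, against 28 and 30 reads in the low library, and neither was called. Vmn2r1 and Vmn2r2 overlap each other in the RefSeq gene table. Vmn2r4 had 38 and 37 reads in MHC-II high and low and Vmn2r7 had 37 in high and 32 in low, and neither was called. Vmn2r5 (16 reads in MHC-II high, 26 in MHC-II low) and Vmn2r6 (22 in high, 42 in low) were called lower. The median log2 ratio of the 7 genes was -1.26. Their summed log2 ratio was -0.67 without Vmn2r3 (interval -0.93 to -0.41) and -1.75 over Vmn2r4 to Vmn2r7 alone (-2.12 to -1.38), so that the sum over all 7 genes stands near 0 through Vmn2r1 to Vmn2r3.

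Vmn2r57 and Vmn2r29 were the 2 other Vmn2r genes with a mean of at least 1 CPM. Vmn2r57 had 215 reads in MHC-II high and 82 in MHC-II low cells, levels of 0.565 and 0.598 (ratio 0.945, interval 0.730 to 1.23). Vmn2r29 had 86 and 77 reads in MHC-II high and low, levels of 0.367 and 0.910, was 2.48-fold lower (1.802 to 3.42) and was not called. The highest mean levels of the family were those of Vmn2r29, Vmn2r57, Vmn2r3 and Vmn2r2. Vmn2r56 had 0 reads in MHC-II high and 56 in MHC-II low cells, at least 40.7-fold lower. Vmn2r114 had 0 reads in MHC-II high and 51 in MHC-II low cells, at least 37.0-fold lower. Vmn2r116, a receptor of the male pheromone Esp1, had 0 reads in MHC-II high and 29 in MHC-II low cells (at least 20.4-fold lower), and Vmn2r112 had 0 in high and 28 in low (at least 19.7-fold lower). Its ligand Esp1 had 34 reads in MHC-II high and 14 in MHC-II low cells (ratio 0.876, interval 0.458 to 1.77).

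Several of these genes lie beside each other in the RefSeq gene order, and groups of neighbours were summed. The 7 genes from Vmn2r111 to Vmn2r117, all called lower, had 6 reads in MHC-II high and 186 in MHC-II low cells (86.0-fold lower, 38.8 to 237). The 4 genes from Vmn2r53 to Vmn2r56, all called lower, had 18 reads in MHC-II high and 186 in MHC-II low cells (28.7-fold lower, 17.6 to 49.4). The 11 genes from Vmn1r55 to Vmn1r65 had 19 reads in MHC-II high and 236 in MHC-II low cells (34.5-fold lower, 21.6 to 58.2), and 9 of them were called lower. The 5 genes from Vmn1r85 to Vmn1r89 had 0 reads in MHC-II high and 71 in MHC-II low cells, at least 52.0-fold lower, and all were called lower. By contrast, the 28 genes from Vmn1r4 to Vmn1r31 had 123 reads in MHC-II high and 126 in MHC-II low cells (2.84-fold lower, 2.20 to 3.67), and the 8 from Vmn1r32 to Vmn1r39 had 93 reads in MHC-II high and 47 in MHC-II low cells (1.402-fold lower, 0.965 to 2.01). Vmn1r32 alone gave 81 of these reads in MHC-II high and 2 in MHC-II low cells. The families as a whole were 6.18-fold (Vmn1r, 5.70 to 6.71) and 3.67-fold (Vmn2r, 3.45 to 3.89) lower. Called lower were 45.4% of the compared Vmn1r and 61.2% of the Vmn2r genes, beside 14.8% of all genes. Without members that share their 2 read counts with another gene, the 16 Vmn1r genes left were 5.02-fold and the 29 Vmn2r genes left 2.31-fold lower. The groups of neighbours named here were picked out after their values were seen.

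**Figure D5:**
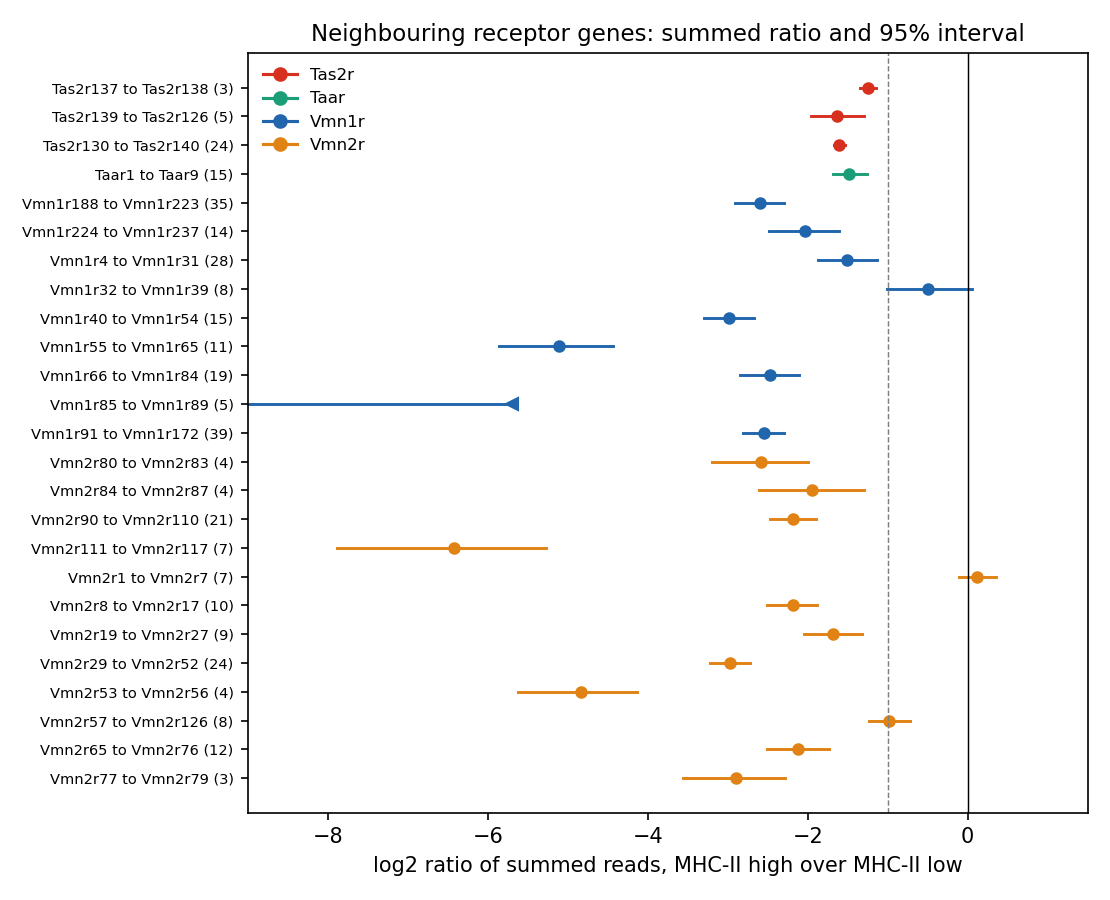
log2 ratio of summed reads, MHC-II high over MHC-II low, with 95% counting intervals for groups of at least 3 neighbouring receptor genes, labelled by their first and last gene and their number; the arrowhead marks the upper limit of a group with 0 reads in the high library, the solid line equality and the dashed line 2-fold. Vmn2r111 to Vmn2r117 lie at -6.43 and Vmn2r1 to Vmn2r7 at 0.12.

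Matches in counts and length between genes limit these values. The same reads in both libraries and the same length as another gene were found for 41 receptor genes, 39 Vmn1r and 2 Vmn2r, and their values are uncertain as single genes. The same held for 177 of 1103 olfactory receptor genes and 389 of all 23411 compared genes. Whether a match reflects near-identical copies or equal small counts was not tested. Vmn1r118, Vmn1r242 and Vmn1r252, for example, each had 16 reads in MHC-II high and 21 in MHC-II low cells, and Vmn2r101 and Vmn2r102 each had 0 in MHC-II high and 10 in MHC-II low. Reads summed over several genomic copies of 1 transcript made up 21 genes. A further 28 Vmn1r genes had different summed lengths in the 2 tables and were not compared. Their median level was 0.0221 (0 to 0.0666) in the high and 0.143 (0.0512 to 0.257) in the low library. Another 18 Vmn1r genes were listed for the low library only.

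Most vomeronasal signalling genes were not called. Of 11 measured, 2 were called higher, Omp and Ano2, and 2 lower, 18.2% each way, near the 13.7% and 14.8% over all genes, and the median log2 ratio was 0.37. Trpc2, the channel on which vomeronasal signalling depends, had 6.61 CPM in MHC-II high and 5.10 CPM in MHC-II low cells (ratio 1.29, interval 1.13 to 1.49). Gnao1, the G protein subunit of Vmn2r neurons, was called lower with 7.42 CPM in MHC-II high and 20.4 CPM in MHC-II low cells, as was Plcb2. Gnai2, that of Vmn1r neurons and of many other cells, had 229 CPM in MHC-II high and 433 CPM in MHC-II low cells, and Kcnma1, a potassium channel, 66.0 CPM in high and 66.3 CPM in low. Of 10 markers of olfactory and vomeronasal neurons, Cnga2, Gap43 and Omp were called higher, beside 13.7% over all genes, and none lower. Among those not called, Ncam1 (ratio 0.470, interval 0.436 to 0.507) and Tubb3 (0.540, 0.471 to 0.620) lay below 1. Gng8, Nrcam, Stoml3, Trpc2 and Uchl1 had ratios above 1. With TMM over genes with a mean of at least 1 CPM, 2 markers were called higher and 1 lower, beside 12.1% and 16.3% of all genes. The list summed to 131 CPM in MHC-II high and 76.3 CPM in MHC-II low cells, of which Omp gave 55.9 and 11.2 CPM, and no marker stood at 0. Of 10 lineage factors of these neurons 2 were called higher, beside 13.7% over all genes, and none lower. They were Neurog1 (3.04 CPM in MHC-II high, 0.340 in MHC-II low) and Tfap2e (2.39 in high, 0.548 in low). Meis2, Bcl11b, Ebf4 and Ebf3 were not called, with 110, 15.2, 4.403 and 4.62 CPM in the high library and 106, 19.0, 5.52 and 4.69 CPM in the low library.

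Genes known to act beside vomeronasal receptors were called higher in part. Of 9 H2-M genes, MHC class I-like genes of which the H2-M10 family is expressed with Vmn2r receptors, 5 were called higher (55.6%, beside 13.7% of all genes) and none lower (median log2 ratio 1.91). H2-M10.5 had 9.78 CPM in MHC-II high and 0.700 CPM in MHC-II low cells (ratio 13.98, interval 10.096 to 19.9), H2-M10.1 had 5.91 and 0.889 CPM, H2-M1 had 3.42 and 0.908 CPM, H2-M11 had 1.34 and 0.246 CPM, and H2-M9 had 1.17 and 0.189 CPM. The rest of the H2-M10 family was not called. H2-M10.2 lay below 1 (ratio 0.544, interval 0.377 to 0.791), and H2-M10.3, H2-M10.4 and H2-M10.6 had ratios of 2.01, 0.848 and 1.16. Secreted ligands of vomeronasal neurons, the major urinary proteins (Mup) and exocrine peptides (Esp), had 9 of 17 genes called higher (52.9%, beside 13.7% of all genes) and none lower (median log2 ratio 2.23). Mup4 had 507 reads in MHC-II high and 6 in MHC-II low cells (ratio 30.5, interval 13.9 to 83.4), and Mup6 had 604 in high and 16 in low. Mup1, Mup2, Mup3, Mup5, Mup20, Esp6 and Esp15 were the others called, with 56 to 585 reads in MHC-II high and 2 to 46 reads in MHC-II low cells. Mup21 was not called and lay below 1 (ratio 0.388, interval 0.169 to 0.897). Nor were Esp1, Esp3, Esp4, Esp18, Esp23, Esp24 and Esp38, with 0 to 34 reads in MHC-II high and 0 to 14 in MHC-II low cells. Some Mup genes are near-identical copies, and the single values of such genes are uncertain. Of 6 formyl peptide receptors, of which several are expressed in mouse vomeronasal neurons, 4 were called lower (66.7%, beside 14.8% of all genes) and none higher. Fpr-rs3, Fpr-rs4 and Fpr-rs6 had 0 reads each in MHC-II high and 8, 22 and 5 reads in MHC-II low cells, and Fpr3 had 2 reads in high and 28 in low. Fpr1 and Fpr2, receptors of phagocytes, had 142 and 67 reads in the high library, against 38 and 16 reads in the low library, and neither was called. With the RPKM totals, under which 36.3% of all genes were called higher and 7.36% lower, 6 of 9 H2-M genes, 9 of 17 ligands and 6 of 11 vomeronasal signalling genes were called higher, and 3 of 6 formyl peptide receptors lower.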

How the data were processed

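Libraries came from a non-stranded TruSeq kit and were read as 2 ends of 100 bases, per the labels' protocols and design text. The submitters' processing notes name mm9, Bowtie 1.0.0, CASAVA and bedtools; the sources used here give neither settings nor annotation. The authors deposited a read count and an RPKM value per RefSeq transcript, per the file headers; RPKM served only to recover the authors' read totals, 213854095 (high) and 142330178 (low). Lines that were no transcripts (18 in the table of MHC-II high cells, 36 in the other) were left out, and 840 lines of further genomic copies in the high table were summed. Transcripts missing from 1 table, or with another summed length, were not compared. Symbols and gene order came from RefSeq (GRCm38.p6; 29352 of 29920 accessions) and GENCODE (174), with no mm9 coordinates given. Totals were scaled with TMM over all genes in edgeR 4.0.16 to 146702907 (high) and 52891644 (low). No minimum on reads was set. Ratios, intervals and calls were computed with scipy 1.17.1. Intervals and floors cover counting error only, as PCR reads carry no molecular identifiers.

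Named were the 4 members per family with the highest mean level, the called members with the most extreme limits, all Tas1r and Taar genes, the genes next to a member at 10 or more times its family's median level, and in each signalling list the 4 genes with the most reads and every gene called. Other genes named (Vmn2r1 to Vmn2r7, the extreme groups of neighbours, further Tas2r genes, H2-M10 genes not called and tuft-like markers) were chosen after their values were seen. The members and lists were chosen with earlier results of these data known. Other scalings, thresholds and treatments of copies were tried. One gene of a signalling list is not reported here.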

Additional observations from a re-analysis of the deposited data

Results flagged for a closer look

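A set of 18 Vmn1r genes was listed in the MHC-II low table and not in the MHC-II high table, so they entered no comparison. They held 165 reads in the low library, 3 to 22 per gene with a median of 8, above the 3 reads that a count of 0 allows over the set. Their levels were 0.0620 to 0.351 with a median of 0.162, beside a median of 0.131 over the compared Vmn1r genes in the same library. Their values in the high library were not analysed here.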

How the results depend on the processing

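No paired analysis was possible because each group had 1 library, and for the same reason no replicate could be left out. No called value changed direction, while the summed Tas1r ratio, not called, changed sign with the RPKM totals. With the RPKM totals 115 of 357 receptor genes were called lower, beside 7.36% of all genes. Without the 276 members that share their 2 read counts with another gene, 42 of 81 were called lower (51.9%, beside 52.9% of all 357). With a mean of at least 1 CPM 12 of 24 were, beside 9.25% of the 17441 genes at that level, and with intervals beyond 4-fold 108 of 357. Calls higher were 1 under each of the last 2 settings. The share of all genes called at 4-fold is not given here, so the count at 4-fold cannot be read against it. Summed log2 ratios with unscaled totals were -2.46 (Vmn1r), -1.71 (Vmn2r), -0.70 (Tas1r) and -1.38 (Tas2r). With the RPKM totals they were -1.74 (Vmn1r), -0.99 (Vmn2r), 0.02 (Tas1r), -0.67 (Tas2r) and -0.59 (Taar). With TMM over genes with a mean of at least 1 CPM, chosen after seeing the data, they were -1.99 (Vmn2r), -0.98 (Tas1r) and -1.67 (Tas2r). Without members of shared counts Vmn1r was -2.33 and Vmn2r -1.21, and with missing lines read as 0 Vmn1r was -2.75. Without its member with the most reads each family but Taar moved, to -2.77 (Vmn1r), -2.00 (Vmn2r), -0.64 (Tas1r) and -1.67 (Tas2r). After subtracting the median Vmn level per kilobase, added later, Taar was -1.12. Detected in the high library were 277 genes with at least 1 read, 48 at the level of 10 reads and, without shared counts, 65 of 81 (80.2%, beside 33.3% of all 357); in the low library 219 at the level of 10 reads and 73 of 81 (90.1%, beside 92.2%). The median member left had 26 reads in MHC-II high and 41 in MHC-II low cells, against 4 and 13 over all 357. Of 33 named genes with a ratio, 13 moved beyond their interval with the RPKM totals, 2 with unscaled totals and 1 with the other TMM. The RPKM totals change every ratio by construction. For the rest, the cause was not tested. Counts of a few reads limit most Vmn1r and Vmn2r values.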
